A study of Mus musculus with 9 samples.

Results

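H3K4me3, a histone mark of active promoters, was compared between mouse MLL-ENL leukemia cells that carry Flag-tagged Hhex on a deleted background (labelled ΔERT2 + Hhex-F, called the rescue library here) and cells with floxed alleles (labelled fl, called the floxed library). The deposited table gives 1 count per gene in a window of 0.301 kb, and genes whose counts averaged 20 or more over both libraries were taken as measured, which left 6762 of 26611 named genes. H3K27me3, counted over whole gene spans in the same lines, was read at the same genes, and the deleted library (labelled ΔERT2) is given beside both as a value only. All lines share the MLL-ENL fusion. Each line has 1 library per mark, so differences describe these libraries and have no replicate check. The labels name neither the floxed gene, the vector that carries tagged Hhex, the number of clones, nor an agent or time for the deletion.

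H3K4me3 is placed at the starts of active genes by the SET1 and MLL families of methyltransferases, and is read by proteins that recruit the transcription machinery. H3K27me3 is placed by Polycomb repressive complex 2 over silent genes, often developmental regulators, and some promoters carry both marks. MLL-ENL joins the amino-terminal part of the methyltransferase MLL, without its methylating domain, to ENL, a protein of transcription elongation complexes, and keeps stem cell genes such as Hoxa9 active in myeloid progenitors. Hhex is a homeobox transcription factor of blood progenitors, endoderm and endothelium, and acts largely as a repressor.

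The promoter sequences of 5 genes are shown because the results turn on these genes: Hhex and Pgk1 had the largest rises in the rescue library, Rbm24 and Tubg2 had the lowest ratios, and Mpo, the gene of the neutrophil enzyme myeloperoxidase, was lower in H3K4me3 and far higher in H3K27me3. Each runs 5′ to 3′ from 250 bases before to 50 after a listed start, from the RefSeq table of build GRCm38.p6 (the assembly of mm10), with CG dinucleotides in capitals.
Hhex (chr19:37434591-37434890, plus strand): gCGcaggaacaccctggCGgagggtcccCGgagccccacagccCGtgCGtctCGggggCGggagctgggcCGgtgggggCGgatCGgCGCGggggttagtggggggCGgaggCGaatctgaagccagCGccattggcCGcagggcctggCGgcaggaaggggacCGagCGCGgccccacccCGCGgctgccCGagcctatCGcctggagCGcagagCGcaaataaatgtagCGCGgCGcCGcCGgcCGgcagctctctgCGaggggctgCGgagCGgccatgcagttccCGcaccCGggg
Pgk1 (chrX:106186850-106187149, plus strand): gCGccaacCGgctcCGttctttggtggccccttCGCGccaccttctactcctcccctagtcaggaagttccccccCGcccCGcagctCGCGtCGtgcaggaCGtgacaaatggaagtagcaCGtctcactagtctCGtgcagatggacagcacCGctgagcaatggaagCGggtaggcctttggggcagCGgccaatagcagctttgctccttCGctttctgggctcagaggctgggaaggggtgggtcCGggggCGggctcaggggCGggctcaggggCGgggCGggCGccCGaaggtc
Rbm24 (chr13:46418050-46418349, plus strand): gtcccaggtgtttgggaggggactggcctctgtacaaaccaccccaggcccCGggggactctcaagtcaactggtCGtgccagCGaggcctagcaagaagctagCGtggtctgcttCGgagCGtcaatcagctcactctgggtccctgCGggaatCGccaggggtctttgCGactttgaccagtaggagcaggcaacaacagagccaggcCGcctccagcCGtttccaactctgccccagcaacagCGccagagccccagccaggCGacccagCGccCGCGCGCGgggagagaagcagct
Tubg2 (chr11:101155634-101155933, plus strand): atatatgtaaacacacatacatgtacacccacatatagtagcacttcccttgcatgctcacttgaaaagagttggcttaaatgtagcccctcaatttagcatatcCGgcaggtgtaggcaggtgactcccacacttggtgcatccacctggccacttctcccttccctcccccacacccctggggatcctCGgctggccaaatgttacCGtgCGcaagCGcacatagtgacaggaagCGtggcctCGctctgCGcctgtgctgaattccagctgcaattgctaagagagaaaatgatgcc
Mpo (chr11:87793534-87793833, plus strand): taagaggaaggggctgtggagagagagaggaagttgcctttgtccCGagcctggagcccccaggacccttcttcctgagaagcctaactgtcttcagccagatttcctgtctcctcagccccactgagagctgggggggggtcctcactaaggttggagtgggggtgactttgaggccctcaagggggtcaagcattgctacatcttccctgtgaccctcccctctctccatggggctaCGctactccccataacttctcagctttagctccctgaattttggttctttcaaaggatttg
The Hhex promoter holds 37 CG dinucleotides and a GC share of 75.7%, and that of Pgk1 holds 24, whereas Mpo holds 2. The median over the 32851 promoters of the table was 7.00. The letters TAAT, the core that homeobox proteins commonly bind, or ATTA on the other strand, occur in none of the 5 windows and in 58.0% of all promoters of this length.

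The 3 H3K4me3 libraries held 645240 (floxed), 420701 (deleted) and 395133 (rescue) counts in named genes, and the H3K27me3 libraries between 2444487 (floxed) and 4203349 (rescue). Windows of myeloid genes carried the mark in every library: Kit had 223, 162 and 143 counts (floxed, deleted, rescue), Hoxa9 had 220, 120 and 105, and the neutrophil protease gene Ctsg had 170, 76 and 102. The window of Meis1, a frequent partner of Hoxa9 in MLL leukemia, held only 4, 3 and 1. A marked promoter outside the window of a gene would not be counted. A list of 30 genes silent in blood (olfactory, vomeronasal and keratin genes) held 15, 7 and 8 counts in all. Markers of other blood and stromal cells were sparse: the measured genes were 2 of 15 for B cells, 1 of 21 for T and NK cells, 2 of 20 for red cells and megakaryocytes, 1 of 15 for mast cells and related types and 3 of 20 for stroma and endothelium. Their summed levels ranged from 155 to 570 CPM in floxed and from 101 to 519 CPM in rescue.

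Hhex had the largest gain. Its window (gene at chr19:37434841-37440731) held 60, 68 and 130 counts in floxed, deleted and rescue, or 93.0, 162 and 329 CPM (counts scaled to a common library total over named genes). The rescue library was 3.54 times the floxed (95% interval 2.59 to 4.89), with the deleted library between them. H3K27me3 over Hhex held 332, 385 and 487 counts, a ratio of 0.853 (0.740 to 0.984), which is short of the size used here for a call. Reads of an added copy and of the endogenous gene cannot be told apart in these counts.

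Pgk1, which encodes the glycolytic enzyme phosphoglycerate kinase, was next, with 39, 19 and 73 counts in floxed, deleted and rescue and a ratio of 3.06 (2.04 to 4.63). Its promoter is in wide use in expression vectors. Both Hhex and Pgk1 also had a summit of the Flag precipitation within 1 kb of a listed start. At Hhex a summit lay 257 to 263 bp from the start in all 3 Flag lists, so it was also present where no tagged protein is labelled. By the authors' scores it ranked 9 of 475 (floxed), 9 of 220 (deleted) and 7 of 429 (rescue). At Pgk1 the rescue summit lay 85 bp from the start and ranked 2 of 429. The floxed list had a summit there ranked 453 of 475, and the deleted list had none. Whether vector sequence contributes to the counts of either gene was not tested.

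Apart from these 2 genes, promoters that differed in H3K4me3 rarely had a Flag summit near them. In the rescue list a summit lay within 1 kb of a start for 2 of 96 higher genes with a listed start (2.08%), 1 of 197 lower genes (0.508%) and 3 of 4909 genes not called (0.0611%). The lower gene was Osbpl6, an oxysterol-binding protein gene, 899 bp away and ranked 404 of 429. The 2 higher genes were Hhex and Pgk1 in both the rescue and the floxed list.

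A gene was called when the CPM of one library was 1.5 times that of the other or more, and the exact 95% interval of this ratio did not include 1. By this rule 132 genes were higher in the rescue library (1.95% of 6762) and 261 were lower (3.86%). With edgeR's TMM factors in place of library totals the counts were 100 and 329, so lower calls made up 76.7% of calls in place of 66.4%. With library totals and a 99% interval the counts were 65 and 120. Over this many genes a 95% interval can exclude 1 through counting error alone, and the number of such calls is not reported here. Most windows were close: the median log2 ratio was -0.01, and the middle range of genes ran from -0.22 to 0.18. Among calls, 97 lower genes had a ratio of 0.5 or less against 23 higher genes at 2 or more, and the full range ran from -2.32 (Rbm24) to 1.80 (Hhex) on the log2 scale. Lower genes had a median of 112 CPM in floxed and 58.2 in rescue, and higher genes 78.3 and 132.

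**Figure D1:**
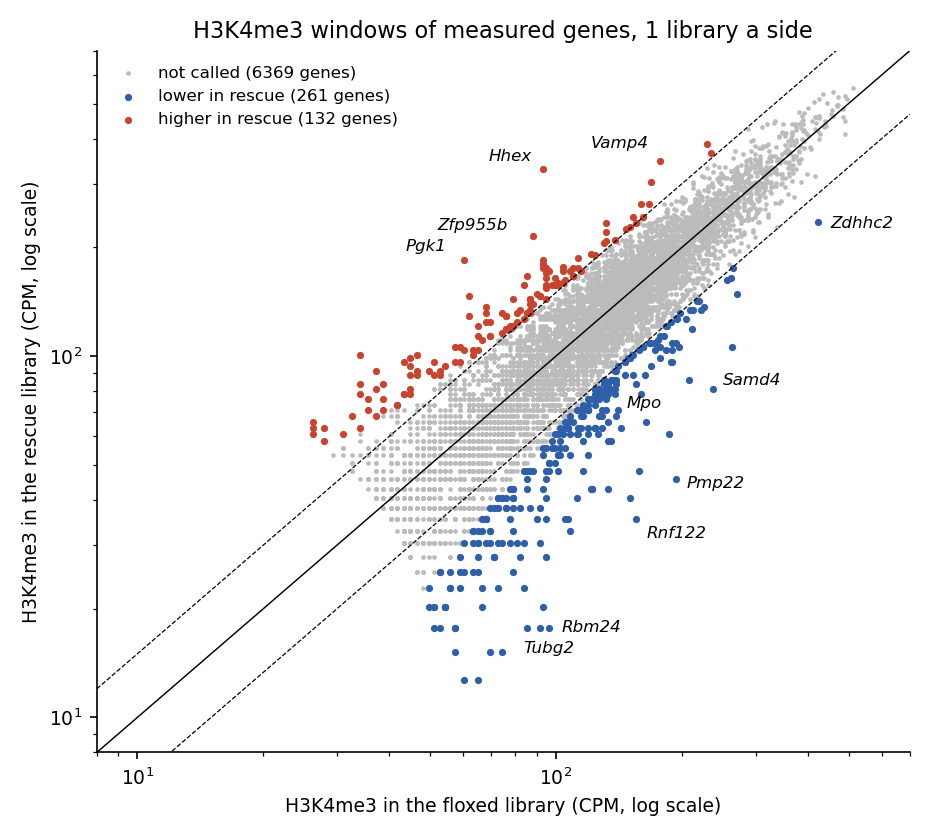
H3K4me3 in the floxed library (x axis) against the rescue library (y axis), in CPM on log scales, with 1 point per measured gene, equality as a solid line and a ratio of 1.5 either way as dashed lines. Of the 132 higher genes, Hhex and Pgk1 lie farthest above the line of equality, and the 261 lower genes reach farther from the line at low levels.

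Genes higher in the rescue library had varied roles. Zfp955b, a zinc finger gene, held 57, 62 and 85 counts (floxed, deleted, rescue; ratio 2.44, 1.72 to 3.47). Cep55, needed for the last step of cell division at the midbody, held 40, 56 and 58 (2.37, 1.56 to 3.64), and its deleted library was close to rescue. Fam177a held 148, 92 and 153 (1.69, 1.34 to 2.13), the deepest window among the 15 leading higher genes. Signalling genes in this set were Lifr, the receptor of leukemia inhibitory factor (40, 44 and 51, ratio 2.08), the kinase gene Hunk (60, 66 and 73, ratio 1.99), the growth factor Fgf10 (28, 33 and 38, ratio 2.22) and the galanin receptor Galr3 (44, 24 and 54, ratio 2.00). Maf1, a repressor of RNA polymerase III, held 60, 31 and 69 (1.88, 1.31 to 2.70), with the deleted library lowest. Abhd11os and Rapgef3os2, transcripts opposite Abhd11 and Rapgef3, had ratios of 2.45 and 1.93, and a window at such a pair can hold the mark of either gene.

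Genes lower in the rescue library showed larger differences, and in all 15 leading genes the deleted library was nearer to floxed. Pmp22, a myelin membrane protein gene, held 125, 105 and 18 counts, a ratio of 0.235 (0.135 to 0.387). Rnf122, a ring finger protein gene, held 100, 80 and 14 (0.229, 0.121 to 0.402). Rbm24, an RNA-binding regulator of muscle splicing, had the lowest ratio of the measured genes at 0.184 (0.0712 to 0.403), from 62, 42 and 7 counts. Tubg2, a gamma-tubulin of the microtubule organising centre, held 59, 33 and 7, a ratio of 0.194 (0.0747 to 0.425). The remaining leaders were a mixed set. Abcb1a, a drug efflux pump, held 60, 59 and 8 counts, and its paralog and neighbour Abcb1b held 75, 58 and 19 (0.414, 0.236 to 0.692). Cap2, an actin regulator 70804 bp from Rbm24, held 70, 46 and 13. Mei4, which acts in meiotic recombination, held 97, 57 and 16, and Eid2, an inhibitor of the acetyltransferase p300, held 102, 58 and 19. Tmeff1, Gramd3, the somatostatin receptor Sstr4, the formin Fmn1 and the protocadherin Pcdhgb4 had ratios of 0.327, 0.323, 0.209, 0.204 and 0.194.

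**Figure D2:**
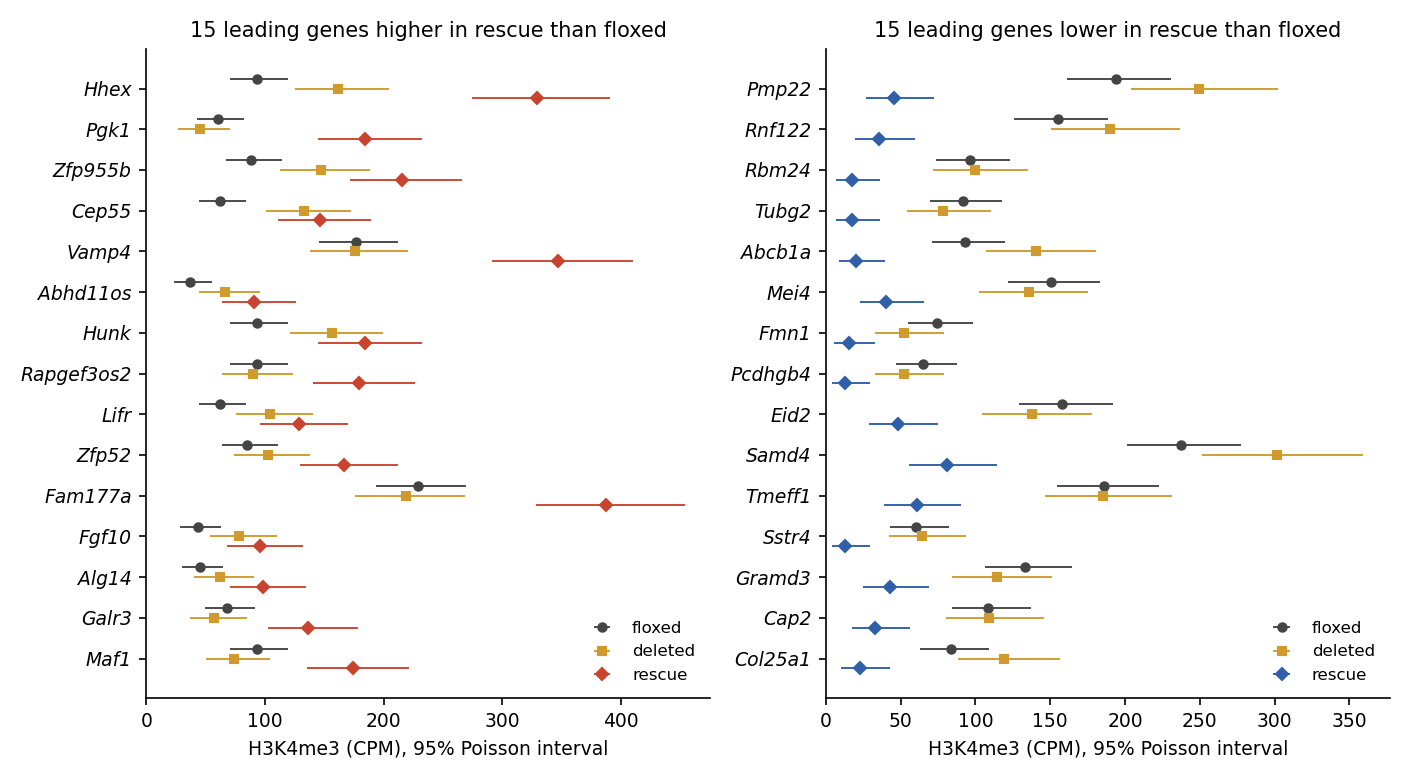
H3K4me3 of the 15 leading higher genes (left) and 15 leading lower genes (right) in CPM, with a point per library and the exact 95% Poisson interval of its count as a bar. Hhex reads 93.0, 162 and 329 CPM in floxed, deleted and rescue, and in the right panel the rescue point lies under both other points for every gene.

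Over all calls the deleted library lay between the other libraries for 83 of 132 higher and 134 of 261 lower genes. It was nearer to floxed for 85 of the higher (64.4%) and 199 of the lower genes (76.2%). Since genes were called on the floxed and rescue values, these counts depend in part on that choice and are given as a description. For the lower genes the deleted library was above both others for 112 and below both for 15.

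Calls followed the level of the window. In the lowest of 10 equal classes of mean CPM the median log2 ratio was -0.23, with 9.32% of genes lower and 1.78% higher, and in the highest class it was 0.07, with 0.148% lower and 0.592% higher. The filter on mean counts leans on the deeper floxed library. With a filter on mean CPM (38.4), chosen after the data were seen, the lowest class had 8.02% lower and 2.53% higher. The most heavily marked windows hardly moved: A530013C23Rik held 330, 208 and 218 counts (ratio 1.08) and Zswim5 316, 217 and 208 (1.07). The part of precipitation efficiency and depth in the trend was not tested.

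Lower calls also lay more often at genes that carried H3K27me3 in the floxed library. Measured genes were set in 5 equal classes by floxed H3K27me3 density, in CPM per kb of gene. The shares lower in H3K4me3 were 3.18, 2.07, 2.66 and 3.48% from the lowest class to the fourth and 7.91% in the highest (107 of 1353 genes with at least 0.910 CPM per kb). Shares of higher genes were 2.07% in the lowest class and 2.29% in the highest. The same order of the highest class over the rest was seen within windows under the median H3K4me3 level (12% against 3.38 to 6.50%) and within those at or over it (3.31% against 0.534 to 1.29%). The H3K4me3 level was not matched within these 2 sets. Under the median, the highest class had a median of mean CPM of 71.7, against 80.8 to 93.9 in the rest. At or over it, the values were 190 against 166 to 179. No test was made of these shares.

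**Figure D3:**
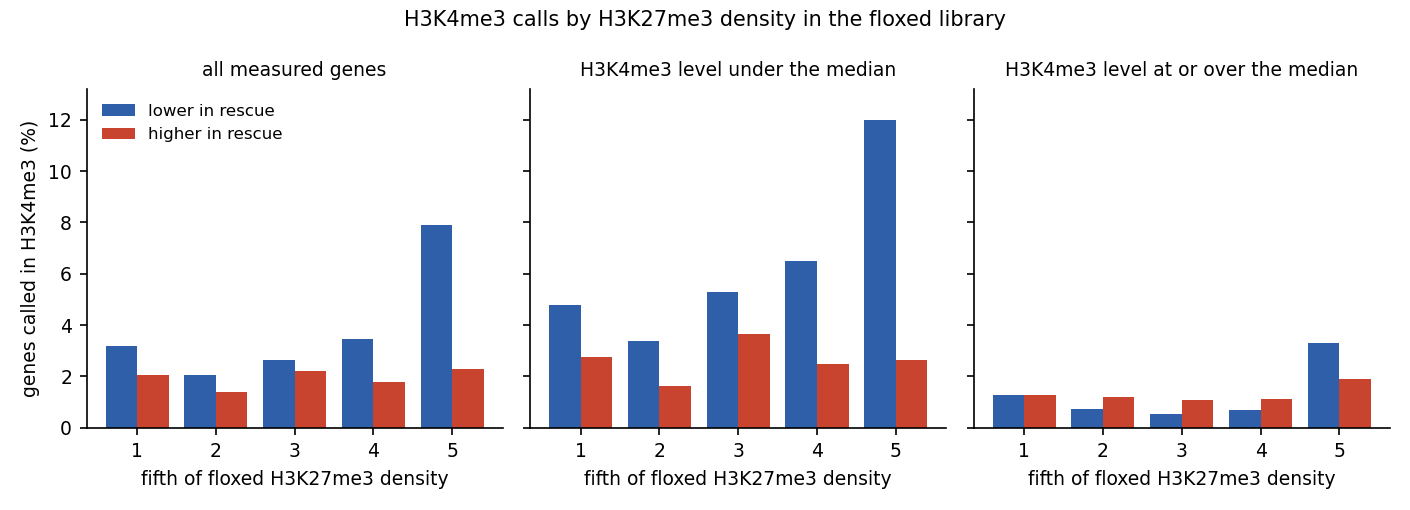
Share of measured genes called lower or higher in H3K4me3 (y axis, percent) in 5 classes of floxed H3K27me3 density (x axis, lowest to highest), for all genes and for windows under or over the median H3K4me3 level. The bar of lower genes is tallest in the highest class of each panel, at 7.91, 12 and 3.31%.

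H3K27me3 was measured at 10856 genes, of which 643 were higher in rescue (5.92%) and 850 lower (7.83%). Of the 2430 genes measured in both marks, 148 were higher in H3K27me3 (6.09%) and 231 lower (9.51%). Among the 151 of these with lower H3K4me3, 22 had higher H3K27me3 (14.6%) and 6 had lower (3.97%), and the median H3K27me3 log2 ratio was 0.04. Among the 50 with higher H3K4me3, 8 had lower H3K27me3 (16.0%) and 3 had higher (6.0%), with a median of -0.26. The 2229 genes not called in H3K4me3 had a median of -0.09. The 8 genes became 4 with TMM factors, and neither share was tested. The filter on mean counts leans on the deeper library of each mark, floxed for H3K4me3 and rescue for H3K27me3. It thus admits genes with less H3K4me3 and more H3K27me3 in rescue more readily than the opposite class. Mpo (5 floxed and 483 rescue H3K27me3 counts) and Vamp4 (3 and 493) passed only through the rescue library. A filter on mean CPM was not run for these classes. Read from H3K27me3, 14.9% of the 148 higher genes and 2.60% of the 231 lower genes had lower H3K4me3, beside 6.21% of all 2430.

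**Figure D4:**
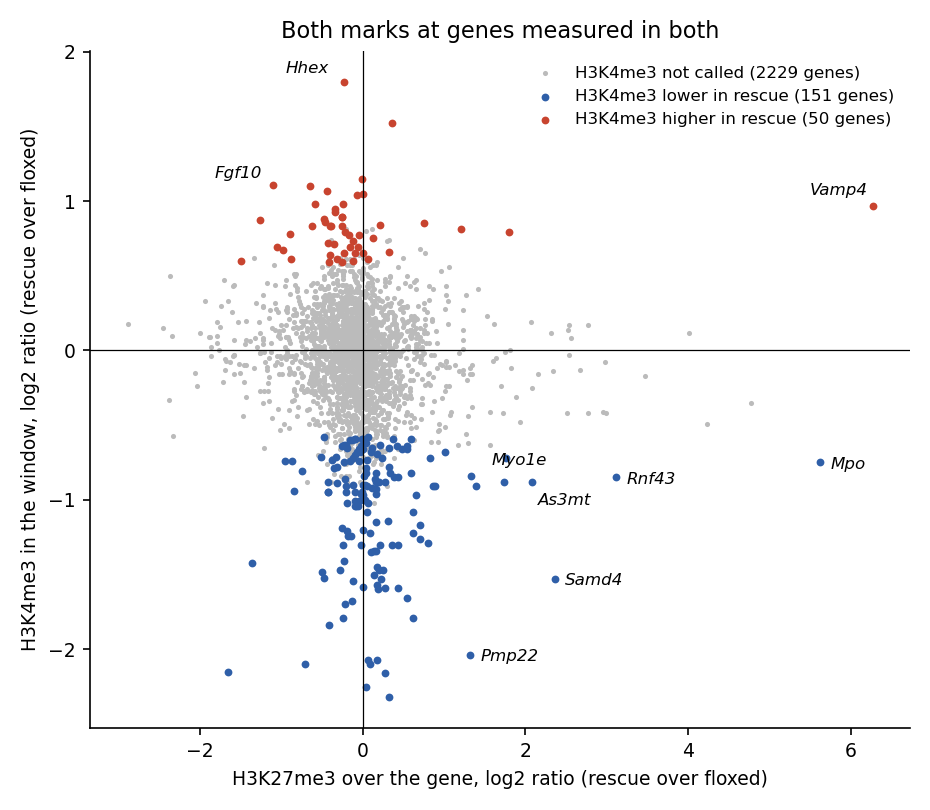
Log2 ratio of rescue over floxed for H3K27me3 over the gene (x axis) and H3K4me3 in the window (y axis) at the 2430 genes measured in both. Mpo, Rnf43, Samd4 and Pmp22 lie at lower right, and Vamp4 lies farthest right among genes higher in both marks.

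The 22 genes with less H3K4me3 and more H3K27me3 in the rescue library included 2 genes of myeloid cells, Mpo and Fgr. Mpo, the granule enzyme of neutrophils and their precursors, held 89, 49 and 32 H3K4me3 counts (floxed, deleted, rescue; ratio 0.587, 0.379 to 0.888). Its H3K27me3 held 5, 6 and 483 counts, a ratio of 56.2 (23.9 to 174), so the mark was near absent in both other libraries. Fgr, a Src-family kinase gene of myeloid cells, held 44, 46 and 14 H3K4me3 counts and 30, 22 and 97 H3K27me3 counts. F5, which encodes coagulation factor V, held 47, 27 and 15 H3K4me3 counts against 70, 84 and 317 H3K27me3 counts. The H3K4me3 windows of the other granule genes, Elane (91, 28 and 58, ratio 1.04), Prtn3 (80, 56 and 48, ratio 0.980) and Ctsg (ratio 0.980), were not called. Their H3K27me3 counts were also highest in rescue, the deepest H3K27me3 library, at 0, 1 and 5 for Elane, 1, 1 and 12 for Prtn3 and 0, 0 and 10 for Ctsg, but were too few to be measured.

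The gain at Mpo (chr11:87793784-87804412) was accompanied by gains at nearby genes. Rnf43, a ubiquitin ligase gene that restrains Wnt receptors and comes before Mpo on the map (chr11:87663087-87735539), held 175, 114 and 59 H3K4me3 counts (0.551, 0.403 to 0.743) and 21, 12 and 323 H3K27me3 counts (8.94, 5.75 to 14.6). Between them Bzrap1 held 31, 31 and 374 H3K27me3 counts (7.02, 4.86 to 10.5), and at the sides Hsf5 had a ratio of 2.00 and the lactoperoxidase gene Lpo 2.25. A gain could not be called at every gene of the stretch. Supt4a and Mir142, which lie between Rnf43 and Bzrap1, held 0, 1 and 5 and 0, 0 and 0 H3K27me3 counts, too few to be measured. Mir142 (chr11:87756864-87756927) is too short for its counts to show whether the gain is interrupted. The H3K4me3 windows of Supt4a (113, 60 and 72, ratio 1.04) and Mir142 (150, 83 and 87, ratio 0.947) were not called. The eosinophil peroxidase gene Epx, beyond Lpo, was not called, with an H3K27me3 ratio of 1.08 (0.799 to 1.47).

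Samd4, which encodes the RNA-binding repressor Smaug, had the most H3K27me3 counts in the rescue library of the 22 genes of this class. Its H3K4me3 held 153, 127 and 32 counts (0.342, 0.226 to 0.503) and its H3K27me3 943, 340 and 8334 (5.14, 4.80 to 5.50), over chr14:46882965-47105817. The neighbouring windows of Cdkn3 (77, 60 and 63) and Cgrrf1 (132, 70 and 73) were not called. Pmp22 lay beside further H3K27me3 gains: its own H3K27me3 held 267, 91 and 1150 counts (2.50, 2.19 to 2.87), that of the sperm tail gene Tekt3 105, 37 and 1271 (7.04, 5.77 to 8.67), and Cdrt4 had a ratio of 1.82. Myo1e, an unconventional myosin gene, held 100, 83 and 33 H3K4me3 counts against 789, 365 and 4521 H3K27me3 counts (3.33, 3.09 to 3.60). In Samd4, Pmp22 and Myo1e the deleted library had the least H3K27me3 of the 3 while its H3K4me3 stayed nearer to floxed.

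The remaining genes of this class had H3K27me3 ratios from 1.51 (Osbpl6) to 4.28 (As3mt). Zdhhc2, a palmitoyltransferase gene, had the deepest window of the 22 genes, at 273, 179 and 93 H3K4me3 counts (0.556, 0.435 to 0.706), with 122, 123 and 531 in H3K27me3 (2.53). St3gal5, the ganglioside GM3 synthase, held 170, 146 and 42 (0.403, 0.281 to 0.568) and had an H3K27me3 ratio of 1.74. Col25a1, a membrane collagen gene, held 54, 50 and 9 with an H3K27me3 ratio of 1.53. The growth factor Fgf2 (51, 51 and 13), the arsenic methyltransferase As3mt (43, 33 and 14, H3K27me3 ratio 4.28), Gng12 (143, 76 and 53, H3K27me3 ratio 3.49) and the p53-pathway phosphatase Ppm1d (74, 42 and 28) were also in it. For 10 of the 22 the H3K27me3 ratio was 2 or more.

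The opposite class, more H3K4me3 and less H3K27me3, held 8 genes. Fgf10 combined 28, 33 and 38 H3K4me3 counts with 470, 447 and 376 H3K27me3 counts (0.465, 0.405 to 0.534). Tcf7l2, the transcription factor of Wnt signalling, held 62, 41 and 68 H3K4me3 counts (1.79, 1.25 to 2.57) and 2346, 2548 and 2624 H3K27me3 counts (0.650, 0.615 to 0.688). Tle2, a Groucho-family corepressor, held 63, 46 and 62 (1.61) with an H3K27me3 ratio of 0.503. The others were Mgam, Pcbp4, Frmd6, Prcp and Zfhx2, with H3K4me3 ratios of 1.53 to 1.85. These H3K4me3 gains were small, and Zfhx2 was at the edge of the rule (1.75, 1.0 to 3.08).

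Vamp4, a SNARE of the trans-Golgi network, was higher in both marks. Its window held 114, 74 and 137 H3K4me3 counts (1.96, 1.52 to 2.54), and H3K27me3 over chr1:162570515-162599082 held 3, 10 and 493 counts, a ratio of 95.6 (32.5 to 465). Its neighbour Myoc also had more H3K27me3 (36, 36 and 152, ratio 2.46, 1.70 to 3.64), whereas the larger gene Dnm3 did not meet the size (1.21). Mthfs and Actb were the other genes higher in both, with H3K4me3 ratios of 1.77 and 1.75. A further 6 genes were lower in both, among them Sstr4, the heat shock factor Hsf4 (0.594 in H3K4me3, 0.545 in H3K27me3), the kinase gene Snrk and Olfml2a.

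Gene lists are described by their counts beside the background of 1.95% higher and 3.86% lower and the overall median of -0.01. Hox cluster genes had the lowest median of the lists with at least 5 measured genes, at -0.28: 10 of 13 were under 0 and 3 were called lower. These were Hoxb13 (45, 23 and 13 counts, ratio 0.472, 0.233 to 0.890), Hoxd8 (81, 62 and 30, ratio 0.605) and Hoxd13 (85, 54 and 32, ratio 0.615). Hoxa9, the target gene best known in this leukemia, had a ratio of 0.779 (0.612 to 0.988), and Hoxa10 0.770 (0.517 to 1.13), both short of a call. The 9 measured MLL fusion targets had a median of -0.11 and no call, and 25 developmental transcription factors had a median of 0.06 with 1 call, Lhx2 (38, 47 and 42, ratio 1.80).

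Cell cycle inhibitors, the class to which the locus named in the series title belongs, showed no called difference in H3K4me3. The 6 measured CDK inhibitors had a median of 0.26. Cdkn2a, which encodes p16 and p19Arf, held 46, 20 and 39 counts (1.38, 0.880 to 2.17), whereas H3K27me3 over it held 575, 164 and 1060 (1.07). Neither was called, and the interval of its H3K4me3 ratio includes a 2-fold difference. Cdkn1a, the p21 gene, held 58, 73 and 52 (1.46, 0.987 to 2.17), just outside the rule. Cdkn2b held 0, 0 and 1 counts and was not measured. The cell cycle phosphatases went in opposite directions, with Cdc25b at 61, 39 and 61 (1.63, 1.13 to 2.37) and Cdc25a at 69, 42 and 26 (0.615, 0.376 to 0.979), within a list of 16 with a median of -0.06. The 13 measured p53 targets had a median of -0.02 and no call.

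Myeloid maturation genes had 2 higher and 1 lower of 19 measured, with a median of 0.02. Irf8, a transcription factor of monocyte fate, was among the higher genes with 44, 26 and 52 counts (1.93, 1.27 to 2.95), and Mpo was the lower gene. Stem and progenitor genes had 2 higher of 13, Hhex and the Polycomb gene Bmi1 (49, 30 and 51, ratio 1.70, 1.13 to 2.57), with a median of -0.14. Among 10 measured Polycomb genes Bmi1 was higher and Mtf2, a PRC2 accessory subunit, lower (65, 44 and 24, ratio 0.603), with a median of -0.18. None of 13 H3K4 methyltransferase and demethylase genes was called (median 0.14). Of the B-cell markers Rag2, a recombinase gene, was lower (58, 22 and 14, ratio 0.394, 0.203 to 0.716).

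Among genes of basic cell functions, ribosomal protein genes had a median of -0.14 with 1 of 53 higher (Rps27a, 1.57, lost with TMM factors), the proteasome -0.00 with 0 of 22 called, translation factors 0.08 with 0 of 15, and the respiratory chain -0.07 with Ndufb2 lower (90, 32 and 34, ratio 0.617). In the hypoxia and glycolysis list Pgk1 was higher and P4ha2, a collagen prolyl hydroxylase, lower (106, 87 and 26, ratio 0.401, 0.250 to 0.620), and the 17 genes had a median of 0.14. Interferon-stimulated genes had 0 of 14 called and a median of 0.01, and antigen presentation genes 1 of 17 (Tapbp, 1.68, lost with TMM factors) and -0.08. Housekeeping genes, often used as unchanging controls, had 3 higher (among them Pgk1, and Actb at 42, 30 and 45) and 1 lower (Ppia at 38, 26 and 11, ratio 0.473) of 17, with a median of 0.18, the same as the upper quartile of all measured genes.

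Replication-dependent histone genes had 3 lower of 35 and a median of -0.11. Hist1h3a held 38, 38 and 9 counts (0.387, 0.164 to 0.814), Hist1h4f 33, 45 and 8 (0.396, 0.158 to 0.874) and Hist1h2bh 80, 73 and 30 (0.612, 0.388 to 0.942). Summed over the 65 genes of the list, the level was 3061 CPM in floxed, 4861 in deleted and 2716 in rescue, so the deleted library was the one that stood apart. These genes have near-identical copies, and the sources used here do not say how reads shared between copies were counted.

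**Figure D5:**
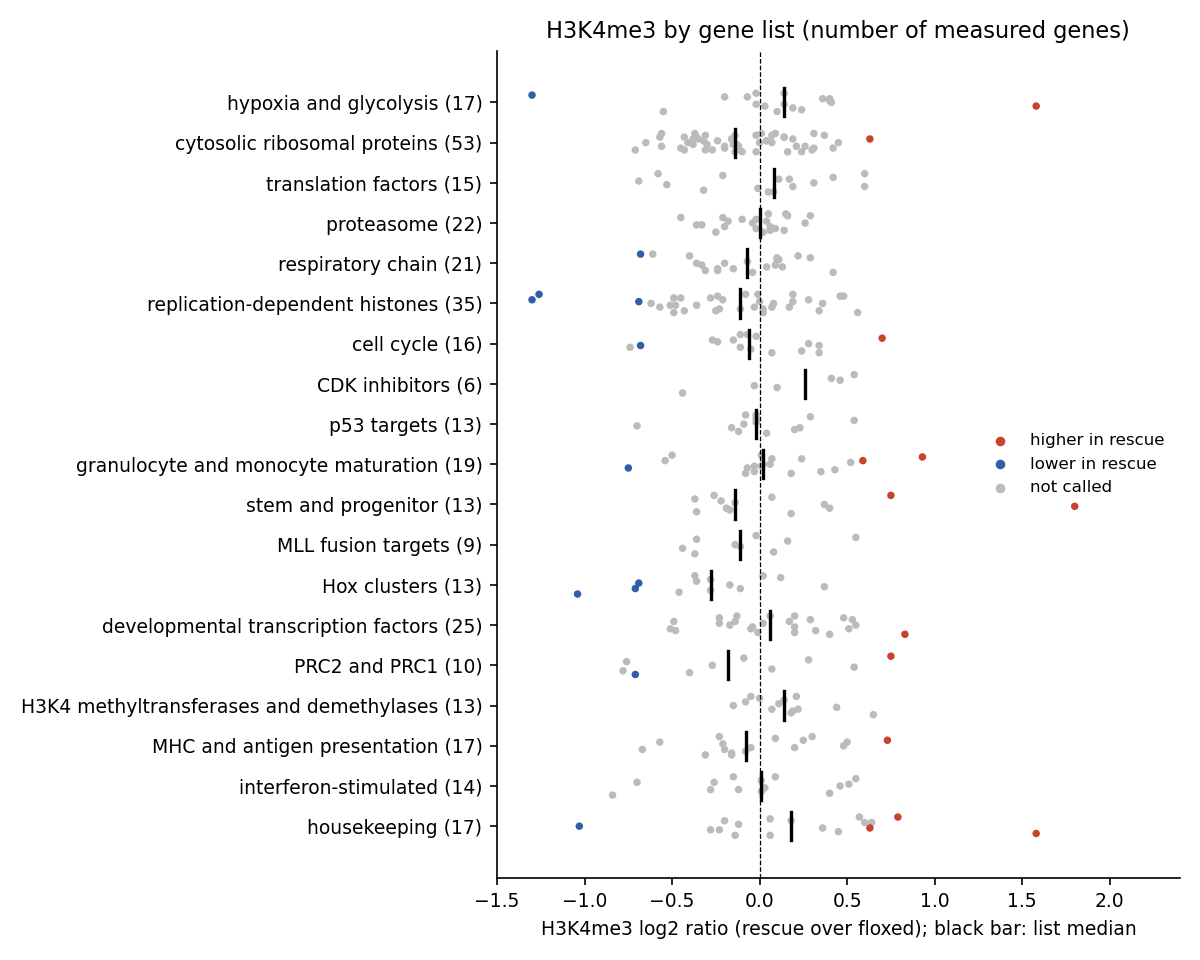
Log2 ratio of H3K4me3, rescue over floxed (x axis), of the measured genes of each list with at least 5 of them, with the list median as a black bar and called genes in colour. Hhex and Pgk1 lie farthest right, and the Hox clusters have the lowest median bar, at -0.28.

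Families were counted after their values had been seen, and are set beside the 1.95% higher and 3.86% lower of all measured genes. Zinc finger (Zfp) genes had 11 higher (6.96%) and 7 lower (4.43%) of 158 measured. Of 9 measured protocadherin genes, Pcdhgb4, Pcdhgb6 and Pcdhgb7 were lower and Pcdhgb5 was higher (29, 37 and 31 counts, ratio 1.75). Solute carriers had 0 higher and 4 lower of 100 (4.00%), a lower share near that of all genes. Of 84 measured microRNA loci, Mir146b was higher (1.19%) and Mir1904, Mir688, Mir9-1 and Mir467f were lower (4.76%), shares also near those of all genes.

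Called genes were spread over the genome. Chromosome medians of the H3K4me3 log2 ratio ran from -0.07 (X) to 0.04 (8), and the share of lower genes from 1.58% (10) to 5.97% (5). H3K27me3 medians ran from -0.10 to 0.09, with the X chromosome highest. Of 257 lower genes with a position, 25 (9.73%) had another lower gene as the next measured gene on either side, and of 129 higher genes 11 (8.53%) had a higher one. These shares count both sides of a gene, and no test was made of them. Pairs among lower genes included Abcb1a with Abcb1b, Rbm24 with Cap2, Hoxd13 with Hoxd8 and Eif5a2 with Rpl22l1. Other lower pairs lay far apart, such as Il11ra1 and Phf24, with a gap of 1103145 bp. The pairs among higher genes were Fam177a with Srp54b, Ighv1-79 with Zfp386, Pnp with Pnp2, Ifnz with Gm13277, Gm13277 with Gm13288 and n-R5s105 with Gm23284. Similar copies, such as Pnp and Pnp2, can share reads. Of 90 measured genes with a start less than 1 window from that of another, 7 were called, all of them lower. Over all measured genes 1.95% were higher and 3.86% lower. Of the 7, 0 had a partner called the same way, and so few calls cannot show whether close windows move together.

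The rule has an edge that counts alone set. Mgst2 (27, 22 and 29 counts, ratio 1.75, 1.0 to 3.08) was just inside on the higher side and Pcmtd2 (52, 47 and 48, ratio 1.51, 0.997 to 2.28) just outside. Harbi1 (80, 48 and 32, ratio 0.653, 0.419 to 0.996) was just inside on the lower side and the histone variant gene H3f3b (55, 10 and 20, ratio 0.594, 0.337 to 1.01) just outside. Some large differences in both directions fell under the filter on counts. On the lower side Rad17, a DNA damage checkpoint gene, held 37, 25 and 0 counts, with an upper limit of 0.171 on its ratio, and the nucleoside carrier Slc28a2 held 37, 50 and 1 (0.0441, 0.00109 to 0.262). On the higher side, with mitochondrial genes left aside, the transcription factor gene Rbpjl held 0, 1 and 10, with a lower limit of 3.66 on its ratio. Btk held 0, 6 and 9 (lower limit 3.22).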

How the data were processed

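The 6 histone tables were deposited by the authors as raw counts of reads for each gene. featureCounts, MACS2 and mm10 are listed in the submitters' processing notes. The aligner, the position of the window and the treatment of shared reads are not given in the sources used here. H3K4me3 windows span 0.301 kb except in 2 rows, and H3K27me3 gene spans have a median of 12257 bp. The Flag summit lists hold a −log10 score per summit, as deposited by the authors, used only to rank within a list. Of 27179 rows, 568 without a symbol were left out.

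Counts were scaled to CPM over named genes, and log2 ratios used a prior count of 1. Ratio intervals are exact 95% Clopper-Pearson limits on the binomial split of counts, and cover counting error only. Positions and promoters came from RefSeq (GRCm38.p6), and 76.9% of measured genes had a promoter, under the 80% needed, so base composition was not compared. Named genes were Hhex, Cdkn2a, Cdkn2b, Cdkn1a, the 15 leading genes a side, up to 5 per class of both marks and called list members; others, including neighbours, were chosen after their values were seen, and some genes are not reported here. Members and lists were chosen with earlier results of these data known. Python 3.11.15, numpy 2.4.6, pandas 2.3.3, scipy 1.17.1, matplotlib 3.10.9, R 4.3.3 and edgeR 4.0.16 (TMM factors) were used.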

Additional observations from a re-analysis of the deposited data

How the results depend on the processing

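With 1 library a side no replicate could be left out, and no paired analysis was possible because each group has 1 library. The 132 higher and 261 lower genes became 68 and 120 with a mean of at least 50 counts, 23 and 97 at a ratio of at least 2, and 65 and 120 with a 99% interval, and without a filter on counts 335 genes were higher and 363 lower. The other scalings and filters, and keeping 1 gene per identical window, gave 100 to 177 higher and 240 to 329 lower genes. The 22 genes with lower H3K4me3 and higher H3K27me3 became 12 with at least 50 counts, 2 at a ratio of at least 2 and 12 with a 99% interval. The 8 genes of the opposite class became 4 with TMM factors, 3 with at least 50 counts, 1 at a ratio of at least 2 and 4 with a 99% interval. The 3 genes higher in both marks became 0 at a ratio of at least 2, and the 6 lower in both became 1 with at least 50 counts, 2 at a ratio of at least 2 and 2 with a 99% interval. Stricter rules test fewer genes or demand more, and the cause of the change with TMM factors was not tested. Among named genes the calls of Pcbp4 (1.49), Rps27a (1.52) and Tapbp (1.63) were lost with TMM factors, and the 24 list medians moved by less than the counting interval of their summed counts under TMM factors, the median of count ratios and a prior count of 5. The medians near 0 changed sign: with TMM factors the myeloid maturation list was at -0.02 and the interferon list at -0.03, and with the median of count ratios the proteasome was at 0.01. Depth limits low windows most: the rescue library held 395133 counts.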
